A study of Mus musculus with 20 samples.

Results

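The 9 genes described here encode calcium-binding proteins of retinal neurons: Calb1, Calb2, Pvalb, Scgn, Cabp1, Cabp2, Cabp4, Cabp5 and Hpca. Each was taken as the probe set whose single platform symbol is that gene. Every gene had exactly 1 such probe set, out of 21789 probe sets with a single symbol and 35557 in all. All 9 passed a filter on dim probe sets (a log2 intensity over 5 in at least 2 of 20 arrays), and 15057 genes were tested with them.

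RNA came from retinas of adult C57BL/6 mice aged 7 to 8 weeks, and every group shared that strain and age. The mice were light adapted for 6 h at 450 lux, or dark adapted for 3 h at 0.4 lux at most. Laser capture microdissection yielded the photoreceptor layer (with inner and outer segments) and the inner nuclear, inner plexiform and ganglion cell layers, and whole retina was measured beside them. Each of the 10 combinations of 5 tissues and 2 adaptation states had 2 Affymetrix arrays. Which animals lie behind which array is not in the labels, so p-values measure only the spread between these samples, which may be technical. A dissected layer holds several cell types, and in such bulk RNA fewer cells of a type and less RNA per cell cannot be told apart.

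All of these proteins bind calcium through EF-hands, short helix-loop-helix motifs. Calbindin, calretinin and parvalbumin are mainly regarded as mobile buffers that shape calcium transients, whereas secretagogin, the CaBP family and hippocalcin are calcium sensors that change the activity of partner proteins. CaBPs resemble calmodulin and act on voltage-gated calcium channels, among them the L-type channels that drive glutamate release from photoreceptors and bipolar cells. Antibodies to several of the proteins are widely used to tell retinal cell classes apart: calbindin for horizontal cells, calretinin for amacrine and ganglion cells, secretagogin for cone bipolar cells, and CaBP5 for rod bipolar cells and some cone bipolar types.

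Values are intensities on a linear scale. The median over all probe sets of an array was 37.5 to 40.8 and the highest intensity was 3035.8 to 4713.1. Replicate arrays of a group correlated at 0.851 to 0.956 across the log2 values of the 15057 genes tested. The correlations between groups that follow were taken in the same way. Light replicate 2 of the whole retina had the lowest median correlation to arrays of other groups (0.721), and the other 3 whole retina arrays were at 0.770 to 0.819. Among the layer arrays the light-adapted inner plexiform layer ones were lowest, at 0.738 and 0.768, against 0.817 to 0.876 in the other 14. In 5 arrays the 30 Y-linked probe sets had a median intensity of 192.25 to 306.2, against 8.6 to 25.05 in the other 15. These 5 were light-adapted arrays: replicate 1 of the photoreceptor layer, inner nuclear layer and whole retina, and both replicates of the ganglion cell layer; they are called the Y-high arrays. Where leaving out these 5, or both light arrays of the inner plexiform layer, ended a call, this is given beside it. The number of arrays limits the precision of every value.

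Rod markers (6 measured) marked the photoreceptor layer, at a summed intensity of 5093 to 5635.5, against 366.1 to 1882.6 in the other 3 layers. Ganglion cell markers (11) summed to 2330.1 to 3839.1 in the ganglion cell layer and 629.5 to 1526.8 in the other 3. Bipolar cell markers (8) summed to 819.7 to 1421.7 in the inner nuclear layer and 711.6 to 1111.7 in the inner plexiform layer, so these 2 layers overlapped, and to 482.1 to 630.2 elsewhere among the layers. Amacrine markers (9) were highest in the inner plexiform layer at 788.4 to 1265.7, but overlapped the inner nuclear layer at 715.8 to 854.9. Müller glia markers (8) reached 1372.4 to 2061 in the inner nuclear layer and 1056.2 to 1971.9 in the inner plexiform layer. Horizontal cell markers (5) were at 220.7 to 306.5 in the photoreceptor layer, below the inner nuclear (372.5 to 407.1) and inner plexiform (372.6 to 440.9) layers, and at 306.4 to 379.4 in the ganglion cell layer. Astrocyte markers (4) were at 140.2 to 156.1 in the photoreceptor layer, below the inner plexiform layer at 161.7 to 203.6, and the other layers overlapped both. Pigment epithelium markers (5) spanned 135.8 to 192, with all layers overlapping. Thy1, a glycoprotein on the ganglion cell surface, was at 497 to 617.9 in the ganglion cell layer and at 1.2 to 4.8 in the inner nuclear layer.

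**Figure D1:**
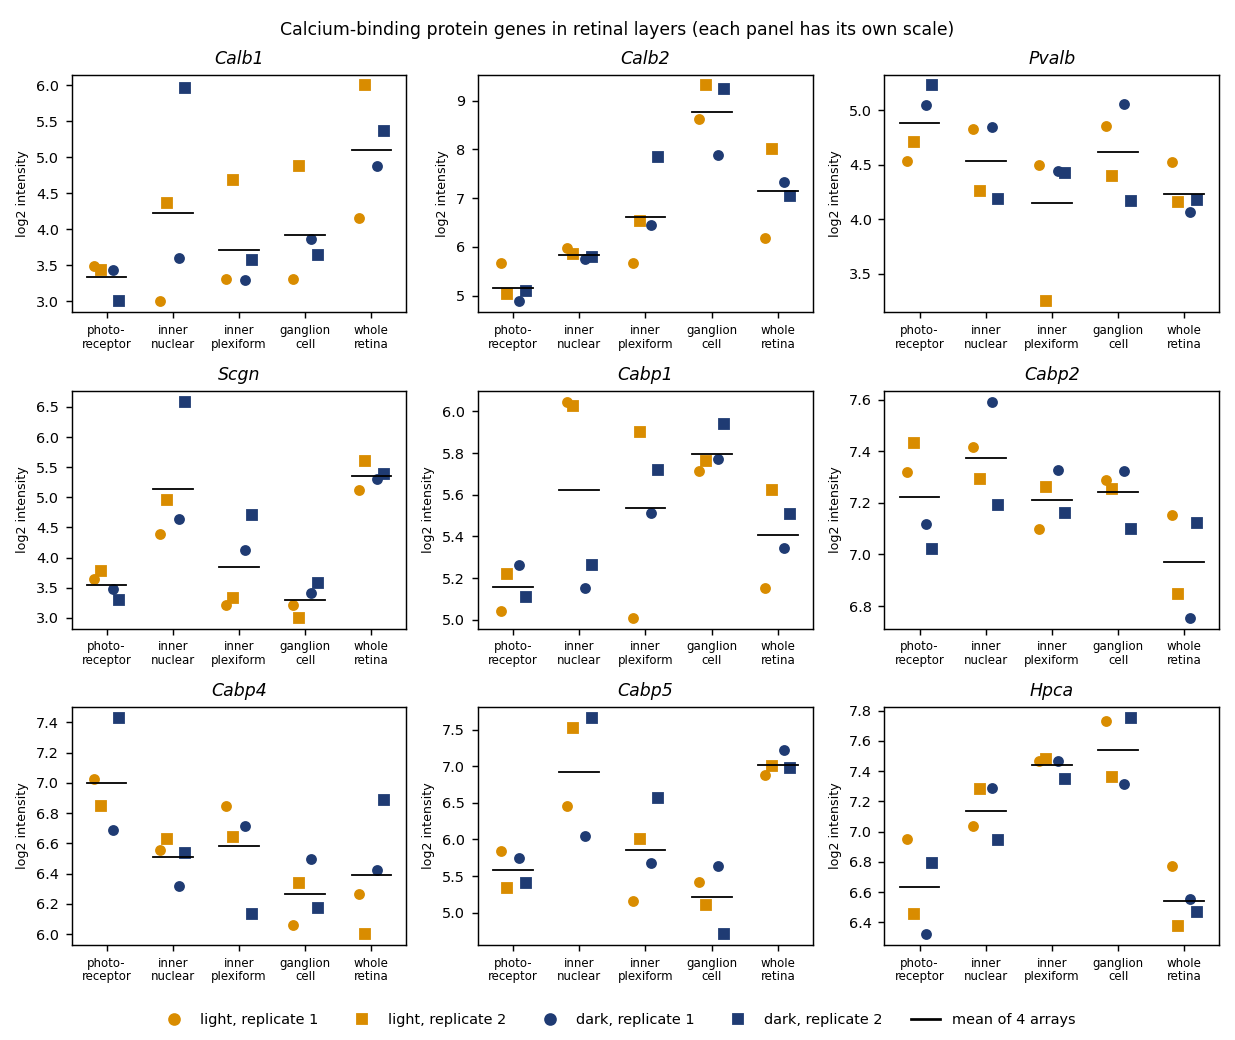
Log2 intensity (y axis, a separate scale per gene) of each gene in the 5 tissues (x axis). Each point is 1 array, coloured by adaptation and shaped by replicate, and the line is the mean of 4 arrays; Calb2 stands highest in the ganglion cell layer and Hpca is lower in the photoreceptor layer than in the other 3 layers.

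The layers differed most in Calb2. In each layer the 4 arrays (2 light adapted, 2 dark adapted) were compared with the 12 arrays of the other 3 layers in a limma fit across all genes, with Benjamini-Hochberg adjustment and a threshold of 0.05. The 4 differences of a gene from this comparison add up to 0, so they are not independent of each other. In the photoreceptor layer 1 of the 9 genes was higher (Cabp4) and 3 were lower (Calb2, Hpca and Cabp1), where 12.9% of all genes were called, 7.26% higher and 5.69% lower. In the inner nuclear layer 2 were higher (Scgn and Cabp5), where 0.611% of all genes were called, 0.252% higher. In the ganglion cell layer Calb2 was higher and no member was lower, where 1.87% of all genes were called, 1.17% higher and 0.704% lower. For the inner plexiform layer limma called 0 of the 9, where 13.6% of all genes were called. Of the 9, 2 had an unadjusted p under 0.05 (Hpca and Pvalb), as did 4494 of all 15057 genes tested. The median log2 difference of the 9 genes was -0.49 in the photoreceptor layer, against -0.06 over all genes. It was 0.13 in the inner nuclear layer, -0.06 in the inner plexiform layer and 0.10 in the ganglion cell layer, where the medians of all genes were -0.0050, 0.01 and -0.01.

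**Figure D2:**
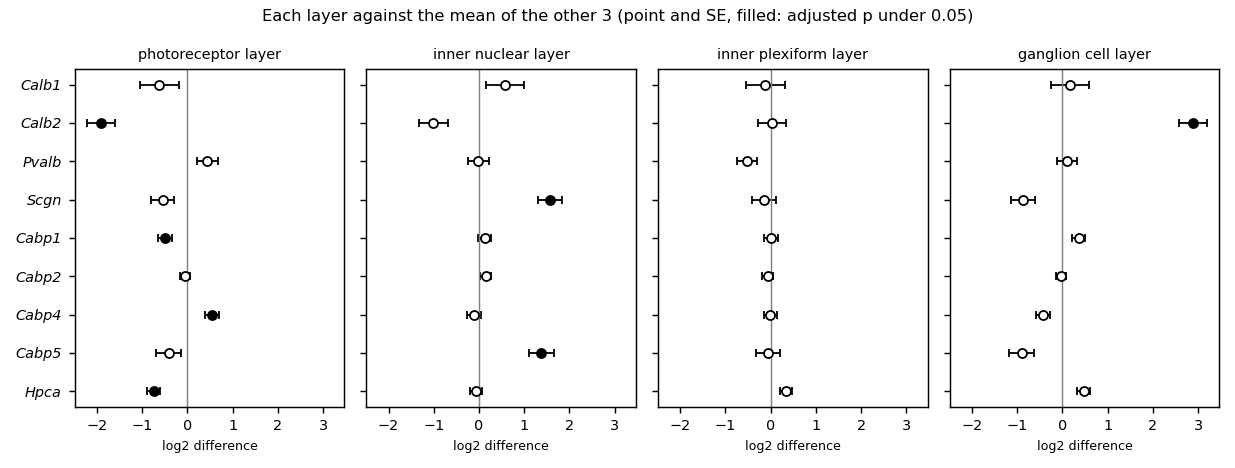
Log2 difference (x axis) of each gene between 1 layer and the mean of the other 3, with its standard error as a bar; filled points had an adjusted p under 0.05. Calb2 lies at 2.89 in the ganglion cell layer and at -1.91 in the photoreceptor layer, the widest span of the 9 genes.

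Calb2 encodes calretinin, a cytosolic calcium buffer of amacrine and ganglion cells. In the ganglion cell layer its intensity was 394.4 and 637.9 in the light-adapted arrays (replicates 1 and 2, an order kept below) and 235.5 and 603.9 in the dark-adapted arrays. In the inner plexiform layer, where the processes of those cells lie, the light-adapted arrays were at 50.7 and 92.0 and the dark-adapted arrays at 87.6 and 229.1. All 4 ganglion cell layer arrays lay above all 12 arrays of the other layers, although dark replicate 1 exceeded the highest inner plexiform layer array only slightly. In the inner nuclear layer Calb2 was at 63.1 and 57.7 in light and 53.5 and 55.6 in dark. Its values in the photoreceptor layer were 50.6 and 32.5 in light and 29.4 and 34.1 in dark. The photoreceptor layer values all lay below those of the other 3 layers, narrowly so in light replicate 1, and those of the inner nuclear layer were the tightest. Calb2 was 7.41-fold higher in the ganglion cell layer than in the other 3 layers (log2 difference 2.89 ± 0.31 SE, adjusted p = 7.6e-05), and it was lower in the photoreceptor layer (-1.91 ± 0.31, adjusted p = 0.00048). Both calls held under every alternative tried.

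The order of Calb2 levels ran from the photoreceptor layer through the inner nuclear and inner plexiform layers to the ganglion cell layer, at mean log2 intensities of 5.16 ± 0.34, 5.84 ± 0.10, 6.62 ± 0.90 and 8.76 ± 0.67 (SD, n = 4 each). Of the neighbours in this order, only the inner plexiform and ganglion cell layers differed (-2.14 ± 0.38, adjusted p = 0.0092). The photoreceptor layer against the inner nuclear layer gave -0.68 ± 0.38 (adjusted p = 0.42) and the inner nuclear against the inner plexiform layer -0.78 ± 0.38 (adjusted p = 0.25). Of the wider pairs, the photoreceptor layer was below the inner plexiform layer (-1.46 ± 0.38, adjusted p = 0.012) and the ganglion cell layer (-3.60 ± 0.38, adjusted p = 8.9e-06). The inner nuclear layer was below the ganglion cell layer (-2.92 ± 0.38, adjusted p = 0.0011). The call between the inner plexiform and ganglion cell layers was lost without dark ganglion cell layer replicate 2 (-1.80, adjusted p = 0.06), without both light-adapted inner plexiform layer arrays (-1.62, adjusted p = 0.33) and without the 5 Y-high arrays (-1.94, adjusted p = 0.081). That between the inner nuclear and ganglion cell layers was lost without those 5 arrays (-2.75, adjusted p = 0.072), and that between the photoreceptor and inner plexiform layers without light photoreceptor layer replicate 2 (-1.30), light inner plexiform layer replicate 2 (-1.24) or dark inner plexiform layer replicate 2 (-1.11), at adjusted p = 0.0504 to 0.0565.

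Over the 6 pairs of layers, 13 of the differences between layers among the 9 genes were called. The inner nuclear and ganglion cell layers, which differed in the fewest genes overall (0.458% called), differed in 3 members: Calb2, Scgn and Cabp5. The photoreceptor and ganglion cell layers differed in 4 members (Calb2, Hpca, Cabp1 and Cabp4, with 7.66% of all genes called). For the photoreceptor layer against the inner nuclear layer the count was 2 (Scgn and Cabp5, 5.33% of all genes), and against the inner plexiform layer it was also 2 (Calb2 and Hpca, 21.4%). The inner plexiform layer differed from the inner nuclear layer in 1 member (Scgn, 4.85%) and from the ganglion cell layer in 1 (Calb2, 3.1%). Without the 5 Y-high arrays 4 of the 13 calls held, those of Calb2 and Hpca in the photoreceptor layer against the inner plexiform and against the ganglion cell layer.

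Calb1 encodes calbindin, the calcium buffer used to label horizontal cells. In the inner nuclear layer, where horizontal cell bodies lie, it was at 7.4 and 20.6 in light and 12.1 and 62.3 in dark. The photoreceptor layer read 11.3 and 10.8 in light and 10.8 and 6.3 in dark. The highest inner nuclear layer array stood alone: Calb1 exceeded the median intensity of its array in 3 of 20 arrays, this one and light replicate 2 and dark replicate 2 of the whole retina. In the inner plexiform layer the 4 arrays ranged from 9.8 to 25.8, and in the ganglion cell layer from 9.9 to 29.5. Its difference between the inner nuclear layer and the other layers was 0.57 ± 0.42 (adjusted p = 0.71), and without dark inner nuclear layer replicate 2 it was -0.021. No pair of layers was called. The floor of 8 applied before log2 touched Calb1 in 2 arrays.

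Pvalb encodes parvalbumin, a calcium buffer found in muscle and in many inhibitory neurons, and in the mouse retina mainly in ganglion cells. It was below the median intensity of the array in all 20 arrays, with a range from 9.5 to 37.5. It was at 23.2 and 26.1 in light and 33.1 and 37.5 in dark in the photoreceptor layer. In the ganglion cell layer it was at 29.0 and 21.1 in light and 33.4 and 18.0 in dark, so these layers overlapped. The difference of the ganglion cell layer from the other 3 was 0.10 ± 0.23 (adjusted p = 0.95). The inner plexiform layer had the lowest mean (-0.52 ± 0.23, adjusted p = 0.14), which rested on light replicate 2 at 9.5 beside 22.6, 21.7 and 21.5 in the other arrays; without it the difference was -0.21. Without light inner plexiform layer replicate 1 this difference was -0.84 with an adjusted p of 0.034. The photoreceptor minus the inner plexiform layer was 0.73 ± 0.28 (adjusted p = 0.076), and 1.04 (adjusted p = 0.016) without that array.

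Scgn encodes secretagogin, a calcium sensor linked to vesicle release and present in cone bipolar cells. Cabp5 encodes a calmodulin-like regulator of L-type calcium channels in rod bipolar cells and some cone bipolar types. Both genes were highest, among the layers, in the inner nuclear layer, where bipolar cell bodies lie, and their log2 values correlated with a Pearson r of 0.90 over the 20 arrays (Spearman rho 0.87), which share tissues and RNA. The 250 bases before their annotated starts are shown because both genes were highest in the same layer and their values correlated; they are RefSeq sequences of GRCm38.p6, written 5′ to 3′ on the strand of the gene, with motif matches in capitals. In Cabp5 (chr7:13397905-13398154, plus strand) the capitals mark 2 matches to TAATCC, the core recognised by the homeodomain factors Crx and Otx2. In Scgn (chr13:23991215-23991464, minus strand) they mark 1 match to the GC box GGGCGG.
Cabp5: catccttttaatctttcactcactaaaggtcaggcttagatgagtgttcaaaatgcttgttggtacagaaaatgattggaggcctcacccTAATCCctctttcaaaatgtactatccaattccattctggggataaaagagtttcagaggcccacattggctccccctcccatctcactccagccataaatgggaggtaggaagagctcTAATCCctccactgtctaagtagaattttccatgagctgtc
Scgn: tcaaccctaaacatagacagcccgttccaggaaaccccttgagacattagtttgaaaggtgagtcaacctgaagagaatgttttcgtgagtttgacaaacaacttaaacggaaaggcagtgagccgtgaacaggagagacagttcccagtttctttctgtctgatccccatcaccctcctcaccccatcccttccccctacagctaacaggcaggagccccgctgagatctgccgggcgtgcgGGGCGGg

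The Cabp5 stretch held 0 CG dinucleotides and the Scgn stretch 9. RefSeq promoters, each 250 bases before and 50 after a start, were at hand for 6 of the 9 genes (11 promoters), and 9 motifs were searched on both strands in these and in all 32851 promoters. TAATCC occurred in 7.06% of all promoters, and at least 2 matches in 0.359%. Of the 11, it occurred in those of Cabp5 (at -160 and -41 from the start), 1 of Cabp2 (at -136 and -124) and 1 of Hpca (at -66). GGGCGG occurred in 35.7% of all promoters and in 5 of the 11. CAGCTG, an E-box (16.3% of all), and CACGTG, another E-box (7.15%), each occurred in 1 promoter of Hpca. TAATTA (5.29%), TGACGTCA (1.79%), TATAAA (13.6%), ATTTGCAT (1.74%) and TTTGCATAA (0.371%) occurred in none of the 11. A match is a description of the letters in this window, not of a bound site. Promoters of Calb1, Calb2 and Cabp4 are not shown.

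Scgn in the inner nuclear layer was at 20.9 and 30.9 in light and 24.8 and 96.2 in dark. Photoreceptor layer intensities were 12.5 and 13.7 in light and 11.1 and 9.8 in dark. Every inner nuclear layer array lay above every photoreceptor layer array. In the inner plexiform layer, which holds bipolar cell terminals, it was at 9.3 and 10 in light and 17.5 and 26.1 in dark, the last value above 2 of the inner nuclear layer arrays. Its values in the ganglion cell layer were 9.3 and 7.9 in light and 10.7 and 11.9 in dark. Scgn was 2.98-fold higher in the inner nuclear layer than in the other 3 layers (1.57 ± 0.26, adjusted p = 0.011). Among pairs, the inner nuclear layer was higher than the inner plexiform layer (1.30 ± 0.32, adjusted p = 0.03) and the ganglion cell layer (1.84 ± 0.32, adjusted p = 0.014), and the photoreceptor layer was lower than the inner nuclear layer (-1.59 ± 0.32, adjusted p = 0.0058). The other 3 layers did not separate: the largest of their differences, inner plexiform against ganglion cell layer, was 0.54 ± 0.32 (adjusted p = 0.38).

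Dark inner nuclear layer replicate 2, with the highest Scgn intensity, also had the highest summed bipolar markers (1421.7, against 819.7 to 1041.5 in the other arrays of that layer) and the highest rod markers of that layer (1638.5, against 401.4 to 886.8); their part in the result was not tested. Without that array Scgn in the inner nuclear layer was 1.09 above the other layers. The call against the other 3 layers was lost without light inner nuclear layer replicate 2 (1.43, adjusted p = 0.0997), without the 5 Y-high arrays (1.64, adjusted p = 0.17) and with a floor of 16 (1.07, adjusted p = 0.062). The call between the inner nuclear and photoreceptor layers was lost without the 5 Y-high arrays only (-1.70, adjusted p = 0.056). The pair with the ganglion cell layer was lost without light inner nuclear layer replicate 2 or without replicate 2 of the ganglion cell layer in light or dark (1.70 to 1.87, adjusted p = 0.0598 to 0.0981), without the 5 Y-high arrays (1.78, adjusted p = 0.45), with no filter (1.84, adjusted p = 0.052) and with a floor of 16 (1.14, adjusted p = 0.16). The pair with the inner plexiform layer was lost without any of 5 arrays (0.81 to 1.44, adjusted p = 0.0539 to 0.115): light replicate 1, light replicate 2 or dark replicate 2 of the inner nuclear layer, and replicate 1 of the inner plexiform layer in light or dark. It was also lost without both light arrays of the inner plexiform layer (0.72, adjusted p = 0.61), without the 5 Y-high arrays (1.44, adjusted p = 0.09), with a floor of 16 (0.93, adjusted p = 0.087) and with array weights (1.30, adjusted p = 0.059).

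Cabp5 in the inner nuclear layer was at 88.3 and 184.2 in light and 66.1 and 202.3 in dark. The inner plexiform layer read 35.8 and 64.0 in light and 51.0 and 94.7 in dark. These layers overlapped, and the arrays of each spread widely. It was at 57.5 and 40.6 in light and 53.5 and 42.3 in dark in the photoreceptor layer. Ganglion cell layer intensities were 42.9 and 34.4 in light and 50 and 26.1 in dark. All inner nuclear layer arrays lay above all arrays of the photoreceptor and ganglion cell layers. Cabp5 was 2.59-fold higher in the inner nuclear layer than in the other 3 layers (1.37 ± 0.27, adjusted p = 0.031) and higher there than in the ganglion cell layer (1.70 ± 0.34, adjusted p = 0.028). The photoreceptor layer was lower than the inner nuclear layer (-1.34 ± 0.34, adjusted p = 0.024). The difference from the inner plexiform layer, 1.07 ± 0.34, did not pass (adjusted p = 0.077), although without dark inner nuclear layer replicate 1 it did (1.48, adjusted p = 0.019).

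The Cabp5 calls depended on single arrays. Against the other 3 layers the call was lost without replicate 2 of the inner nuclear layer in light (1.11) or dark (0.97), and without photoreceptor layer light replicate 2 (1.33), dark replicate 1 (1.40) or dark replicate 2 (1.35), at adjusted p = 0.0528 to 0.247. The same 5 arrays ended the call against the photoreceptor layer when left out (-0.94 to -1.43 for the photoreceptor minus the inner nuclear layer, adjusted p = 0.0566 to 0.131). Leaving out replicate 2 of the inner nuclear or ganglion cell layer, in light or dark, ended the call against the ganglion cell layer (1.30 to 1.63, adjusted p = 0.12 to 0.221). Without the 5 Y-high arrays the difference from the other 3 layers was 1.70 (adjusted p = 0.16), that from the ganglion cell layer 2.01 (adjusted p = 0.35) and that of the photoreceptor from the inner nuclear layer -1.73 (adjusted p = 0.0515). With both light arrays of the inner plexiform layer left out it was 1.28 (adjusted p = 0.076), and with no filter on dim probe sets it was 1.37 (adjusted p = 0.12), where the pair calls were lost too, at adjusted p = 0.144 and 0.086.

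In the ganglion cell layer both Scgn (-0.87 ± 0.26) and Cabp5 (-0.90 ± 0.27) were below the other layers on average, at an adjusted p of 0.13 each. Without dark inner nuclear layer replicate 1 both passed, at -1.04 (adjusted p = 0.0069) for Scgn and -1.03 (adjusted p = 0.028) for Cabp5.

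Cabp4 encodes the CaBP of photoreceptor terminals, where it binds the L-type channel encoded by Cacna1f. Its values in the photoreceptor layer were 130.4 and 115.3 in light and 103.3 and 172.3 in dark. The ganglion cell layer read 66.8 and 80.8 in light and 90.3 and 72.1 in dark. Every photoreceptor layer array lay above every ganglion cell and inner nuclear layer array, but not above the inner plexiform layer. It was at 93.9 and 98.8 in light and 79.7 and 92.7 in dark in the inner nuclear layer. Inner plexiform layer intensities were 114.9 and 99.8 in light and 105.0 and 70.3 in dark. Cabp4 was 1.46-fold higher in the photoreceptor layer than in the other 3 layers (0.55 ± 0.15, adjusted p = 0.024) and 1.66-fold higher than in the ganglion cell layer (0.73 ± 0.19, adjusted p = 0.02). By comparison, Gnat1, the rod transducin subunit, was 2.83 ± 0.32 higher on the log2 scale in the photoreceptor layer (adjusted p = 1e-05).

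Cabp4 exceeded the array median in all 20 arrays, those of the ganglion cell layer included. Its photoreceptor layer call was lost without photoreceptor layer light replicate 1 (0.50), light replicate 2 (0.59) or dark replicate 2 (0.36), at adjusted p = 0.0684 to 0.223, and without the 5 Y-high arrays (0.47, adjusted p = 0.22). The call against the ganglion cell layer was lost without any of the same 3 photoreceptor layer arrays, without light ganglion cell layer replicate 1 or without dark ganglion cell layer replicate 2 (0.55 to 0.78, adjusted p = 0.0504 to 0.132), and without the 5 Y-high arrays (0.62, adjusted p = 0.32). Against the inner nuclear layer the difference was 0.49 ± 0.19 (adjusted p = 0.17), and against the inner plexiform layer 0.42 ± 0.19 (adjusted p = 0.12); the latter passed without dark photoreceptor layer replicate 1 (0.60, adjusted p = 0.045).

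Cabp1 encodes a CaBP, with the splice form caldendrin, that acts on voltage-gated calcium channels and the inositol trisphosphate receptor. Its values in the photoreceptor layer were 32.9 and 37.2 in light and 38.4 and 34.5 in dark. The ganglion cell layer read 52.4 and 54.2 in light and 54.6 and 61.4 in dark. These layers did not overlap and each was tight. It was at 66.1 and 65.2 in light but 35.5 and 38.4 in dark in the inner nuclear layer. Inner plexiform layer intensities were 32.2 and 59.8 in light and 45.6 and 52.6 in dark. Cabp1 was lower in the photoreceptor layer than in the other 3 layers (-0.49 ± 0.15, adjusted p = 0.037) and than in the ganglion cell layer (-0.64 ± 0.18, adjusted p = 0.04). Both calls lay close to the threshold. The first was lost without any of 10 arrays: all 4 of the photoreceptor layer, both light-adapted arrays of the inner nuclear layer, light replicate 1 of the ganglion cell layer and dark replicate 2 of the ganglion cell layer, inner plexiform layer and whole retina, where it was -0.45 to -0.54 (adjusted p = 0.05 to 0.155). The second was lost without any of 12 arrays: all of the photoreceptor and ganglion cell layers, the light-adapted inner nuclear layer and the dark-adapted whole retina (-0.59 to -0.68, adjusted p = 0.0525 to 0.139). Both were also lost with median centring (-0.47 and -0.62), with no filter on dim probe sets (-0.49 and -0.64) and without the 5 Y-high arrays (-0.47 and -0.65).

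Cabp2 encodes a related CaBP that keeps presynaptic calcium channels open in inner hair cells and is also present in the retina. Its intensity varied little between layers: photoreceptor layer arrays ranged from 129.8 to 172.7, and the ranges were 146.0 to 192.9 in the inner nuclear layer, 137.1 to 160.7 in the inner plexiform layer and 137.1 to 160.3 in the ganglion cell layer. All layers overlapped, and no layer comparison passed; the inner nuclear layer against the other 3 was 0.15 ± 0.12 (adjusted p = 0.72). Cabp2 and Cabp4 both lie on chromosome 19 with 4 protein-coding genes between them, and only Cabp4 had a called difference among the layers; a difference between the genes was not tested.

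Hpca encodes hippocalcin, a neuronal calcium sensor that moves to membranes when calcium binds. Its values in the ganglion cell layer were 212.3 and 164.5 in light and 159.5 and 215.5 in dark. The inner plexiform layer read 177.1 and 178.3 in light and 177.0 and 163.3 in dark. These layers overlapped. It was at 131.1 and 155.9 in light and 156.4 and 123.3 in dark in the inner nuclear layer. Photoreceptor layer intensities were 123.9 and 87.9 in light and 80.0 and 110.8 in dark. All ganglion cell and inner plexiform layer arrays lay above those of the other layers, and the photoreceptor and inner nuclear layers met at 123.9 and 123.3. Hpca was lower in the photoreceptor layer than in the other 3 layers (-0.74 ± 0.14, adjusted p = 0.0017), than in the inner plexiform layer (-0.81 ± 0.17, adjusted p = 0.0034) and than in the ganglion cell layer (-0.91 ± 0.17, adjusted p = 0.0023). No single array ended these calls when left out.

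In order of mean log2 intensity, Hpca was lowest in the photoreceptor layer at 6.63 ± 0.29, followed by the inner nuclear layer at 7.14 ± 0.17. The inner plexiform layer at 7.44 ± 0.06 and the ganglion cell layer at 7.54 ± 0.23 came next. Each value is given ± SD with n = 4. No neighbours in this order differed beyond the threshold: the photoreceptor and inner nuclear layers differed by -0.51 ± 0.17 (adjusted p = 0.11), the inner nuclear and inner plexiform layers by -0.30 ± 0.17 (adjusted p = 0.33) and the inner plexiform and ganglion cell layers by -0.10 ± 0.17 (adjusted p = 0.8).

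**Figure D3:**
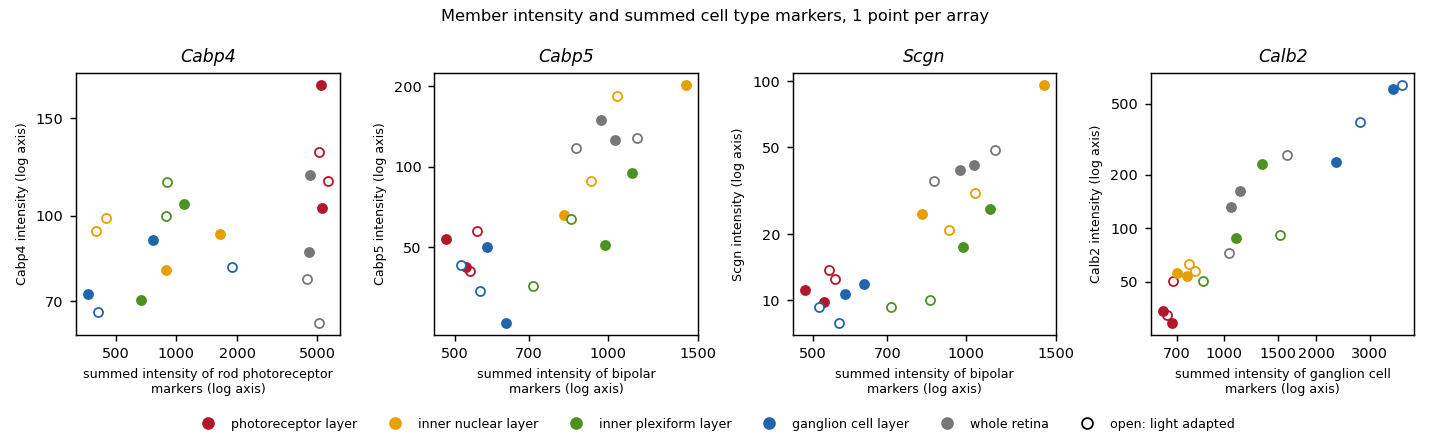
Intensity of 4 genes (y axis, log) against the summed intensity of cell type markers (x axis, log), with 1 point per array coloured by tissue and open for light adaptation. Calb2 and ganglion cell markers are both highest in the ganglion cell layer, while whole retina arrays, with rod markers of 4430.8 to 5093.8, spread over 64.0 to 118.2 in Cabp4.

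In the ganglion cell layer, Calb2 was lowest in dark replicate 1 (235.5), where ganglion cell markers were also lowest at 2330.1, and highest in light replicate 2 (637.9), where they were highest at 3839.1. Inner plexiform layer Calb2 was highest in dark replicate 2 (229.1), the array with the highest amacrine markers of that layer, 1265.7 against 788.4 to 803.8. Ganglion cell markers in that array were at 1330.9, within the range of 849.1 to 1526.8 for the layer. The part of these markers in the Calb2 values was not tested.

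The whole retina differed from the 4 layers in 5 of the 9 genes, where 48.5% of all genes were called (19.9% higher and 28.6% lower) and the median of all genes was -0.18. Without light replicate 2 of the whole retina 3 of the 5 calls held: Scgn (1.28, adjusted p = 0.0079), Cabp5 (1.10, adjusted p = 0.022) and Hpca (-0.54, adjusted p = 0.02). Scgn, Calb1 and Cabp5 were higher, and Hpca and Cabp2 were lower. The median of the 9 was -0.12. Scgn and Calb1 passed the filter on dim probe sets only with whole retina arrays counted. Among the layers only dark inner nuclear layer replicate 2 exceeded the filter, at 96.2 for Scgn and 62.3 for Calb1. The higher calls of these genes in the whole retina are thus tied in part to how they entered the test. Scgn was at 35.0 and 48.5 in light and 39.3 and 41.7 in dark, above 15 of the 16 layer arrays, and was 2.63-fold higher than in the layers (1.39 ± 0.25, adjusted p = 0.00048). Cabp5 was at 117.8 and 128.3 in light and 149.8 and 125.7 in dark, above every layer array except replicate 2 of the inner nuclear layer in light and in dark, with a 2.18-fold difference (1.13 ± 0.26, adjusted p = 0.0029). Bipolar markers summed to 863.7 to 1138.5 in the whole retina, within the range of the inner nuclear layer; their part was not tested.

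Calb1 was at 17.9 and 63.8 in light and 29.4 and 41.1 in dark in the whole retina, a 2.46-fold difference from the layers (1.30 ± 0.41, adjusted p = 0.017). The call was lost without whole retina light replicate 2 (0.84, adjusted p = 0.18) or dark replicate 2 (1.18, adjusted p = 0.081). Calb2 was at 72.8 and 258.9 in light and 162.2 and 132.1 in dark, with the array of 258.9 also highest in ganglion cell markers (1610 against 1033.2 to 1130.3). Its difference from the layers was 0.55 ± 0.30 (adjusted p = 0.13). Without whole retina light replicate 1 it was 1.01 (adjusted p = 0.013), and without the 5 Y-high arrays 1.11 (adjusted p = 0.016).

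Hpca was at 109.5 and 83.1 in light and 94.1 and 88.5 in dark in the whole retina, close to the photoreceptor layer, and lower than the mean of the layers (-0.64 ± 0.14, adjusted p = 0.0013). Cabp2 was at 142.3 and 115.2 in light and 108.0 and 139.3 in dark, and its difference was small (-0.29 ± 0.11, adjusted p = 0.04). That call was lost without any of 9 arrays (-0.20 to -0.29, adjusted p = 0.0509 to 0.229): light replicate 2 of the photoreceptor layer and whole retina, light replicate 1 of the ganglion cell and inner nuclear layers, and dark replicate 1 of all 5 tissues. It was also lost with median centring (-0.24), without the intensity trend (-0.29) and without the 5 Y-high arrays (-0.36). Cabp1 (-0.12 ± 0.14), Cabp4 (-0.20 ± 0.15) and Pvalb (-0.31 ± 0.22) did not pass.

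Dark and light adaptation separated none of the 9 genes at the threshold. All 5 Y-high arrays were light adapted, among them both light arrays of the ganglion cell layer. In that layer adaptation cannot be told apart from whatever the Y-linked signal marks, and in the average over tissues only in part. Averaged over the 5 tissues (10 arrays against 10), limma called 0 of the 9, where 0.0133% of all genes were called. Of the 9, 0 had an unadjusted p under 0.05, against 920 of all 15057 genes tested. The median difference of the 9 was 0.05, against -0.01 over all genes. Within tissues the fit called 0 of the 9 in each tissue. The share of all genes called was 0.0465% for the photoreceptor layer, 0% for the inner nuclear layer and 1.83% for the inner plexiform layer. It was 0.00664% for the ganglion cell layer and 0.0266% for whole retina. The moderated F test of whether the dark effect differed between tissues also called 0 of the 9, where 0.0266% of all genes were called and the smallest unadjusted p of a member was 0.0746 (Cabp1).

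**Figure D4:**
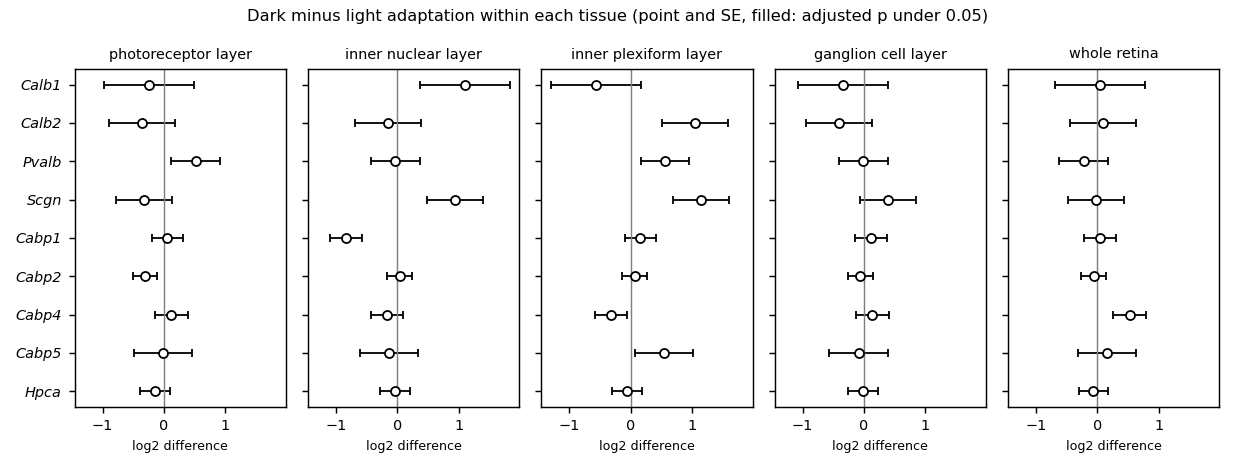
Log2 difference of dark minus light adaptation (x axis) in each tissue for the 9 genes, with the standard error as a bar, from 2 dark and 2 light arrays per tissue. No point had an adjusted p under 0.05; Cabp1 in the inner nuclear layer (-0.83) and Scgn in the inner plexiform layer (1.15) lie furthest from 0 for their error.

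Unadjusted p-values under 0.05 within tissues occurred for 2 results. Of all 15057 genes tested, 473 had such a p-value in the inner nuclear layer and 2815 in the inner plexiform layer. Cabp1 in the inner nuclear layer was 66.1 and 65.2 in light and 35.5 and 38.4 in dark (-0.83 ± 0.26, unadjusted p = 0.00516, adjusted p = 1). Scgn in the inner plexiform layer was 9.3 and 10 in light and 17.5 and 26.1 in dark (1.15 ± 0.46, unadjusted p = 0.0221, adjusted p = 0.19). In these inner plexiform layer arrays bipolar markers were 711.6 and 847.6 in light and 985 and 1111.7 in dark, and their part in the Scgn values was not tested. In the same layer Calb2 differed by 1.05 ± 0.54 (adjusted p = 0.31) with overlapping arrays.

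Averaged over tissues, Scgn had the largest difference (0.43 ± 0.20, adjusted p = 0.81), and Calb1 the smallest with a wide error (-0.0033 ± 0.33). In the inner nuclear layer the differences of Calb1 (1.10 ± 0.73, adjusted p = 1) and Scgn (0.94 ± 0.46, adjusted p = 1) rested on dark replicate 2: without it they were -0.085 and -0.035. Cabp4 in the whole retina was 76.8 and 64.0 in light and 85.9 and 118.2 in dark (0.52 ± 0.26, adjusted p = 1). Hpca was the steadiest between adaptation states, with differences of -0.15 ± 0.24 to -0.01 ± 0.24 within the 5 tissues.

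Related calcium genes were compared in the same fit, as 5 lists. Of all genes, 7.26% were called higher and 5.69% lower in the photoreceptor layer, and 1.17% higher and 0.704% lower in the ganglion cell layer. In either direction, 0.611% were called in the inner nuclear layer and 13.6% in the inner plexiform layer. Of 11 tested relatives of hippocalcin (neuronal calcium sensors, of 12 listed), 2 were higher and 4 lower in the photoreceptor layer. Recoverin (Rcvrn), which restrains rhodopsin kinase, was higher by 3.49 ± 0.22 (adjusted p = 2.4e-08), and Guca1a, an activator of photoreceptor guanylate cyclase, by 2.95 ± 0.19 (adjusted p = 3.1e-08). Vsnl1, a visinin-like sensor, was lower there (-1.55 ± 0.39, adjusted p = 0.013), as was Kcnip4, a potassium channel subunit (-1.05 ± 0.26, adjusted p = 0.012). In the ganglion cell layer Kcnip4 (1.73 ± 0.26) and Vsnl1 (1.67 ± 0.39) were higher. Guca1a (-1.19 ± 0.19) and Rcvrn (-1.17 ± 0.22) were lower there, and no other relative was called. Opposite directions between layers, here and below, follow in part from comparing each layer with the mean of the others. Between the inner nuclear and ganglion cell layers directly, 0 of the 11 were called, where 0.458% of all genes were called. The median of the list was -0.31 in the photoreceptor layer and 0.10 in the ganglion cell layer, against -0.06 and -0.01 over all genes. In the inner nuclear layer Rcvrn and Guca1a were lower, and in the inner plexiform layer Hpcal1 was higher (0.53 ± 0.13, adjusted p = 0.014) and the same pair lower.

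Of 7 tested calcium channel genes whose products CaBPs are known to bind or their channels' subunits (9 listed), 2 were higher and 1 lower in the photoreceptor layer. Of all genes, 7.26% were called higher and 5.69% lower there. Cacna1f, the pore subunit of the photoreceptor L-type channel that CaBP4 binds, was higher by 0.86 ± 0.15 (adjusted p = 0.0008), and Cacna2d4, its accessory subunit, by 0.87 ± 0.13 (adjusted p = 0.00022). Both were lower in the ganglion cell layer (-0.60 ± 0.15 and -0.99 ± 0.13), where Cacna1a, the P/Q-type channel, was higher (0.68 ± 0.14, adjusted p = 0.014) after being lower in the photoreceptor layer (-0.44 ± 0.14, adjusted p = 0.04). The list's median was -0.29 in the photoreceptor layer and 0.02 in the ganglion cell layer.

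Of 8 tested pumps and exchangers that remove calcium (9 listed), the plasma membrane pump gene Atp2b1 was higher in the photoreceptor layer (1.14 ± 0.34, adjusted p = 0.032). Atp2b2, another such pump, was lower there (-0.61 ± 0.11, adjusted p = 0.0017) and higher in the ganglion cell layer (0.52 ± 0.11, adjusted p = 0.023). The medians of this list were -0.34 and 0.30. Of 4 tested calmodulin and CaBP relatives (6 listed), 0 were called in any layer against the others, with a median of 0.63 in the ganglion cell layer. The share of all genes called in these comparisons was 0.611% to 13.6%. Of 16 other EF-hand genes (23 listed), Necab1 (-1.02 ± 0.26) and Necab2 (-0.74 ± 0.21), neuronal EF-hand proteins, were lower in the photoreceptor layer, and S100a10 was higher in the ganglion cell layer (0.91 ± 0.16, adjusted p = 0.0043). In the inner plexiform layer Efhd2 was higher (0.41 ± 0.13) and Calu, calumenin of the secretory pathway, lower (-1.27 ± 0.33). The medians of this list were -0.18 in the photoreceptor layer and 0.00057 in the ganglion cell layer.

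**Figure D5:**
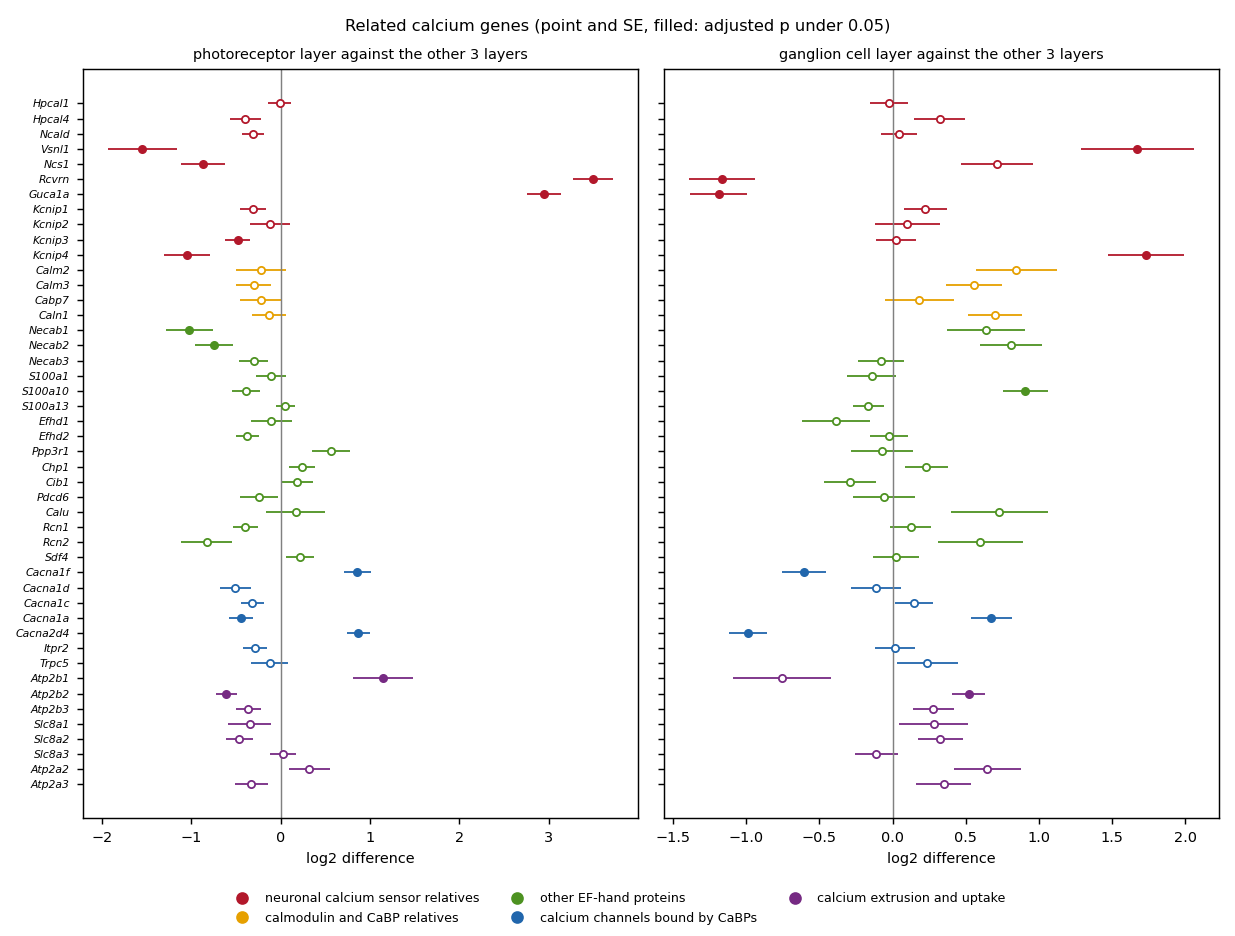
Log2 difference (x axis) with standard error of related calcium genes (rows, coloured by list) in the photoreceptor layer (left) and the ganglion cell layer (right) against the other 3 layers; filled points had an adjusted p under 0.05. Rcvrn and Guca1a lie furthest right in the photoreceptor layer, at 3.49 and 2.95.

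Between dark and light adaptation, 1 gene of these lists was called, in the inner plexiform layer, where 1.83% of all genes were called. Ppp3r1, the regulatory subunit of calcineurin, was higher in dark there (1.79 ± 0.37, adjusted p = 0.026). The F test called 0 genes in each of the 5 lists, where 0.0266% of all genes were called.

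The genes whose log2 values tracked each member most closely over the 20 arrays were found among all genes tested; these correlations describe arrays that share tissues, and no test was made. For Calb2 they were Nefl, the light neurofilament subunit (r = 0.95), Cdk14 (0.94) and Sparcl1 (0.93). For Scgn they were Adgrl2 (0.95), Neurod4, a bHLH factor of bipolar cells (0.93), and Zfp804b (0.93). For Cabp5 they were Lamp5 (0.90), Rlbp1, the retinaldehyde-binding protein of Müller glia (0.87), and Lrtm1 (0.87). Thus a glial gene stood among the nearest for Cabp5. For Hpca they were Cplx2, the synaptic protein complexin (0.90), Cbarp, a calcium channel regulator (0.89), and Camk2n2, an inhibitor of calmodulin-dependent kinase (0.88). For Cabp1 they were Diras2 (0.84), Pfkm (0.81) and the channel gene Cacna1a (0.80). Among the dimmer or flatter genes, Calb1 was nearest to Uggt2 (0.92), Rgs7 (0.85) and Mdm4 (0.85), and Pvalb to Atp8b3 (0.87), Pga5 (0.86) and Rps18 (0.86). Cabp2 was nearest to Optc (0.85), Mybph (0.85) and Slc9a3 (0.82). Cabp4 had the loosest match, with Pnrc1 (0.75), Zfp457 (0.71) and Ppp2r5c (0.68). Among the members themselves, Scgn and Cabp5 correlated at 0.90, and Calb2 and Cabp4 ran in opposite directions (r = -0.69). Calb1 correlated with Scgn (0.66) and Cabp5 (0.63), and with Pvalb at -0.62.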

How the data were processed

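The authors processed 20 Affymetrix arrays with GCRMA, per the submitters' processing notes (version not given in the sources used here), and deposited 1 intensity per probe set and array; the linear scale was read from the values. Labelling used a two-cycle biotin protocol, per the labels' protocols. Intensities were raised to a floor of 8 and converted to log2. Probe sets with 1 symbol (21789; 1621 had several and 12147 were not listed) were kept when at least 2 arrays exceeded a log2 value of 5 (16444), and the probe set with the highest mean stood for each gene (15057 genes). A limma 3.58.1 fit in R 4.3.3 gave 1 mean per group, with 10 residual degrees of freedom, an intensity trend and two-sided moderated tests, adjusted by Benjamini-Hochberg over all genes within each comparison. The fit was tested on simulated data. Errors are standard errors of the fit unless named SD. Replicate numbers were not used to pair arrays in the main fit, and the values with a replicate block are given below. Named genes are all 9 members, the 3 non-member genes most correlated with each, and up to 4 called genes per list and comparison. Members and lists were chosen with earlier results of these data known. Promoters came from RefSeq (GRCm38.p6).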

Additional observations from a re-analysis of the deposited data

Results flagged for a closer look

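In 3 of 45 gene and tissue combinations, 1 of the 4 arrays lay far from the others, with a gap above Dixon's 95% critical value; chance gives about 1 in 20. Calb1 in the photoreceptor layer was 6.3 in dark replicate 2, with a gap of 0.869 of the range, and this value lies under the floor of 8. Pvalb in the inner plexiform layer was 9.5 in light replicate 2, with a gap of 0.942. Hpca in the inner plexiform layer was 163.3 in dark replicate 2, with a gap of 0.917, in a layer whose other 3 arrays ranged only from 177.0 to 178.3.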

How the results depend on the processing

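Of 25 called member results, 11 were ended by leaving out no single array and 14 by at least 1. Over 33 alternative settings, 53 member results were followed: the 25 called ones and a part of the uncalled ones. Called results kept their call in 718 fits, lost it in 99 and reversed in 0. The uncalled results that were followed gained a call in 12. The count of members called in the photoreceptor layer (4) was 2 without the 5 Y-high arrays and 2 to 5 leaving out 1 array. In the inner nuclear layer (2) it was 1 with no filter, with a filter at a log2 value of 7 (which Scgn did not pass), with a floor of 16 and on leaving out both light arrays of the inner plexiform layer, 0 without the 5 Y-high arrays, and 0 to 2 leaving out 1 array. In the inner plexiform layer (0) leaving out 1 array gave 0 to 1, and in the ganglion cell layer (1) it gave 1 to 3. In the whole retina (5) the filter at 7, which Calb1 and Scgn did not pass, gave 3, and leaving out 1 array gave 3 to 6. Calls between pairs of layers (13) numbered 4 without the 5 Y-high arrays and 8 to 14 leaving out 1 array. Averaged over tissues, dark and light adaptation gave 0 calls in all settings run. Dark and light calls within single tissues were not counted over these settings. Leaving out 1 array moved Calb1 in the inner nuclear layer against the others from -0.021 to 1.16, its dark effect there from -0.085 to 2.28 and that of Scgn from -0.035 to 1.92, each negative without dark replicate 2 of that layer only. Same-numbered arrays of 45 pairs of groups correlated at 0.0059 to 0.48 in their deviations, all above 0; 32 were over 0.1, short of the rule that every pair be, so the main values carry no block. With a replicate block, calls in the ganglion cell layer rose from 1 to 2 (Scgn, -0.87, adjusted p = 0.0495) and those between pairs of layers from 13 to 15 (Pvalb, photoreceptor minus inner plexiform, 0.73, adjusted p = 0.035; Cabp5, inner nuclear minus inner plexiform, 1.07, adjusted p = 0.045). A floor of 16 gave no value where both sides lay at the floor. The causes were not tested beyond those named. Signals near the floor (Calb1, Scgn, Pvalb) carry the least information.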
